A study of Homo sapiens with 6 samples.

Results

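The histone cluster genes are the genes whose older symbols begin with HIST1H, HIST2H, HIST3H or HIST4H, the replication-dependent histones. They were taken as every protein-coding entry with such a symbol, which gave 71 of the 58938 entries of the expression table. H2AFZ, H2AFX, H3F3A, H3F3B and H1F0, which encode replacement histones, served as 5 polyadenylated reference genes. The libraries came from HCT116, an established human colorectal cancer line. In 3 libraries the cells had received a plasmid that overexpresses the kinase MST3, the product of STK24 (genotype label "Overexpression of MST3", here OE-MST3), and in the other 3 a vector (genotype label "WT"). All were transfected by lipofection at 60% density, given fresh medium after 6 hours and lysed after 30 hours. The labels give 1 cell line and transient transfection, do not say which promoter drives MST3, and do not say whether replicates were separate cultures, and each p-value below therefore reflects the scatter among these libraries, which may be technical. The question named for the series is how MST3 acts in colon cancer.

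Replication-dependent histone genes supply the core histones H2A, H2B, H3 and H4 and the linker histone H1 that package newly made DNA, and their mRNAs rise in S phase. As a class these mRNAs are not polyadenylated. They end in a short stem-loop that is bound by SLBP, and their genes lie in clusters and lack introns. Replacement histones such as H2A.Z, H3.3 and H1.0 come from dispersed genes with polyadenylated mRNAs that are made outside S phase as well. Some cluster genes, HIST1H2BD, HIST1H2AC and HIST1H1C among them, are known to make polyadenylated mRNAs too. The sources used here do not state if poly(A) selection or removal of ribosomal RNA preceded library construction.

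The stem-loop is the feature that sets these mRNAs apart, and it was searched for on the sense strand as the histone stem-loop motif of 16 bases, with the G and G at its start, the C and C at its end, the run of T in the loop and the A and G that follow the loop fixed and the other 7 bases free, in the coding transcripts of GENCODE 29 (GRCh38). It was found after the stop codon in 31 of the 71 members, 23 to 68 bases downstream of the stop codon, and it took 5 different forms. The form shared by 17 H2A, H2B and H3 genes is shown by HIST3H2A, that of 5 H2B and H3 genes by HIST1H2BD, the 2 forms of H4 genes by HIST1H4E (5 genes) and HIST1H4I (3 genes), and the form found in a single gene by HIST1H2AG. The capitals mark the stem-loop motif with 5 bases of flank on each side.
HIST3H2A: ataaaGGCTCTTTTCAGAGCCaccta
HIST1H2BD: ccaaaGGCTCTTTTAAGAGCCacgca
HIST1H4E: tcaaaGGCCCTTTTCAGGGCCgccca
HIST1H4I: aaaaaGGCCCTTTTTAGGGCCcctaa
HIST1H2AG: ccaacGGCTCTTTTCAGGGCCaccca
H2AFX: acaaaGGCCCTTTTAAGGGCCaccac
The last line is no cluster gene but the reference gene H2AFX, which encodes the DNA damage histone H2A.X. Its model holds the motif 50 bases after the stop codon and runs 1044 bases past it, so H2AFX is a reference with both features. Within 100 bases after the stop codon the motif stood in 26 of the 29 members with that much annotated sequence, or 89.7%, against 10 of 18247 other protein-coding genes, or 0.0548%. Only transcripts with at least 100 bases after the stop codon entered this count. HIST1H2BD counts as lacking the motif here, because its transcript with the motif ends 39 bases past it and is too short to enter. The models of the other 40 members hold no such motif, and for 34 of them the coding transcripts are the coding sequence alone. Reads beyond the coding sequence of those 34 genes could not be counted for them, apart from HIST1H3J. Its length of 775 bases takes in a further transcript that is not coding.

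Reads recovered from the table came to 15289213 to 17209736 per OE-MST3 library and 17296201 to 17708029 per vector library. STK24 stood at 63.7, 72.2 and 76.03 FPKM (fragments per kilobase of gene, as the authors scaled each library) in OE-MST3 libraries, against 17.1, 17.4 and 17.4 FPKM in vector libraries. Of 7 fixed markers of colon epithelium 6 averaged over 1 FPKM, with KRT19, a keratin, at 861 to 1190 FPKM in OE-MST3 and 918 to 951 FPKM in vector libraries, while VIL1 was near 0. Of 12 markers of leucocytes, fibroblasts, endothelium and erythroid cells, COL1A1 alone averaged over 1 FPKM, and PTPRC, the pan-leucocyte marker, reached at most 0.0126 FPKM. In bulk RNA, fewer cells in S phase and less histone mRNA per cell cannot be told apart.

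Most histone cluster genes were at or near 0. At least 1 read in any library was found for 49 of the 71, or 69.0%, against 85.1% of 19951 protein-coding genes, and the other 22 were listed at 0 throughout. The members are shorter, with a median length of 509 bases against 4215 bases, so at equal FPKM they hold fewer reads. The shares with a read are therefore not a comparison of levels alone. A further 10 members had 1 or 2 reads in the 6 libraries together. A mean of at least 1 FPKM was reached by 8 members, or 11.3%, against 54.5% of protein-coding genes, and a mean of at least 10 FPKM by 3 members, or 4.22%, against 20.4%. The median of the 71 means was 0.0525 FPKM, against 1.70 FPKM over all protein-coding genes. Reads were found on 37, 35 and 33 members in OE-MST3 replicates 1 to 3 and on 31, 29 and 33 in vector replicates 1 to 3. Of all 58938 entries, 27442, 25378 and 25125 had a read in OE-MST3 replicates 1 to 3. In vector replicates 1 to 3 it was 25468, 25099 and 25501, so OE-MST3 replicate 1 had the most entries with a read. For a gene of 394 bases, about the median length of the members without reads, 0 reads in a library allows up to 3 reads, or 0.433 to 0.477 FPKM depending on the library. This limit covers counting error only. Detection counts differed by gene model as well. A read was found on 17 of 34 coding-only models, of median length 393 bases, and on 27 of 31 models with a stem-loop, of median length 1534 bases. A mean of at least 1 FPKM was reached by 4 of the 34 and 4 of the 31. The models differ both in length and in holding sequence after the stop codon, which cannot be told apart here.

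All 71 genes together held 950, 1032 and 1047 reads in OE-MST3 replicates 1 to 3 and 1041, 962 and 961 reads in vector replicates 1 to 3. In RPM, scaled to all recovered reads, this was 62.1 (95% Wilson interval 58.3 to 66.2), 60.0 (56.4 to 63.7) and 60.9 (57.4 to 64.8) in OE-MST3 replicates 1 to 3. In vector replicates 1 to 3 it was 58.8 (55.3 to 62.5), 55.0 (51.6 to 58.5) and 55.6 (52.2 to 59.2). The intervals cover counting error only, and those of the groups overlap. The FPKM of the 71 genes summed to 78.9, 76.7 and 83.2 in OE-MST3 libraries and 73.6, 71.8 and 71.2 in vector libraries, or 0.0251 to 0.0302% of all FPKM. The 3 highest genes, HIST1H2BK, HIST1H1C and HIST3H2A, gave 64.8 to 71.5% of that sum in OE-MST3 and 62.0 to 64.4% in vector libraries.

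The 5 reference genes summed to 1074, 927 and 1104 FPKM in OE-MST3 libraries and 976, 949 and 964 FPKM in vector libraries, 12.1 to 13.6 times the sum of all 71 cluster genes. H1F0, which encodes the linker histone H1.0, was the highest at 630, 492 and 548 FPKM in OE-MST3 and 497, 488 and 513 FPKM in vector libraries. H2AFZ, for H2A.Z, had 149, 137 and 146 FPKM in OE-MST3 and 149, 145 and 135 FPKM in vector libraries. Both H3.3 genes lay lower, with H3F3B at 129, 116 and 132 FPKM in OE-MST3 and 120, 120 and 122 FPKM in vector libraries, and H3F3A at 62.3, 63.9 and 65.1 FPKM in OE-MST3 and 64.1, 62.6 and 62.0 FPKM in vector libraries. H2AFX had 104, 117 and 212 FPKM in OE-MST3 libraries, against 146, 133 and 133 FPKM in vector libraries, so its OE-MST3 values lay on both sides of the vector range. By mean FPKM over the 6 libraries H1F0 ranked 41 among protein-coding genes and H3F3A, the lowest of the 5, ranked 497, while HIST1H2BK, the highest cluster gene, ranked 1825.

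**Figure D1:**
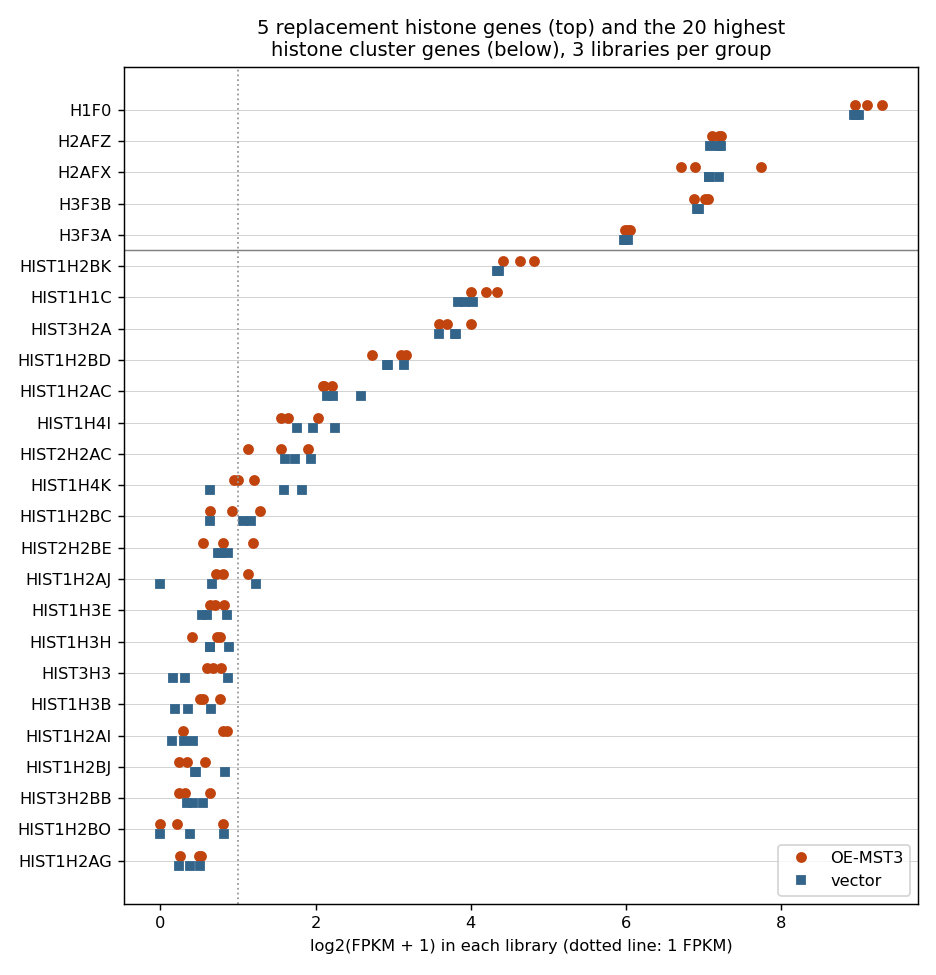
Level of the 5 replacement histone genes (above the line) and of the 20 histone cluster genes with the highest mean, as log2(FPKM + 1) in each library; circles are OE-MST3 and squares vector libraries, 3 each, and the dotted line marks 1 FPKM. Every reference gene lies above every cluster gene, and 8 cluster genes have a mean of at least 1 FPKM.

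Among the 6 H1 genes of the clusters HIST1H1C stood alone, though far below the reference linker gene H1F0. HIST1H1C encodes H1.2 (ENSG00000187837; chromosome 6, 26055787 to 26056428, minus strand, GRCh38), and its coding-only model of 642 bases shares no stretch of 50 bases with another GENCODE 29 gene. It had 19.2, 15.0 and 17.4 FPKM in OE-MST3 libraries, against 15.2, 14.2 and 13.3 FPKM in vector libraries, from 1032 reads in all. OE-MST3 replicate 2 lay below vector replicate 1, so the groups overlap. The other 5 H1 genes had 1 to 23 reads over the 6 libraries, the most on HIST1H1E, which encodes H1.4, and the testis gene HIST1H1T had 1.

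Among 17 H2A genes, 10 had a read. HIST3H2A (ENSG00000181218; chromosome 1, 228456979 to 228457873, minus strand) had 11.9, 11.1 and 15.1 FPKM in OE-MST3 libraries, against 11.0, 12.8 and 13.0 FPKM in vector libraries, from 1146 reads, the most of any member. OE-MST3 replicate 3 was the highest and the groups overlap. HIST1H2AC (ENSG00000180573; chromosome 6, 26124145 to 26139116, plus strand) had 3.31, 3.62 and 3.29 FPKM in OE-MST3 libraries, against 5.01, 3.67 and 3.44 FPKM in vector libraries, where replicate 1 was the high one. Its model of 1668 bases includes a spliced form and runs 1114 bases past the stem-loop. HIST2H2AC had 2.73, 1.18 and 1.94 FPKM in OE-MST3 libraries, against 2.33, 2.84 and 2.06 FPKM in vector libraries, from 87 reads. HIST1H2AJ had 0.648, 1.19 and 0.754 FPKM in OE-MST3 and 0, 1.36 and 0.592 FPKM in vector libraries, from 30 reads, and 83.7% of its 50-base stretches also occur in HIST1H2AI.

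H2B genes held the largest part of the sum. HIST1H2BK (ENSG00000197903; chromosome 6, 27146418 to 27146798, minus strand) had 20.4, 23.7 and 27.1 FPKM in OE-MST3 libraries, against 19.4, 19.1 and 19.6 FPKM in vector libraries, from 843 reads. Every OE-MST3 library was above every vector library, and the vector libraries lay close together. The model is 381 bases of coding sequence, and 25.9% of its 50-base stretches occur in no other GENCODE 29 gene. Most of the shared ones, 61.4% of all, occur in H2BFS, a near-identical copy on chromosome 21 whose 2 entries had 2 and 0 reads, so how the counting split these copies is uncertain. HIST1H2BD (ENSG00000158373; chromosome 6, 26158146 to 26171349, plus strand) had 7.99, 7.60 and 5.63 FPKM in OE-MST3 libraries, against 7.84, 6.63 and 6.58 FPKM in vector libraries. Its span overlaps 2 other entries, LARP1P1 with 8 reads and AL353759.1 with 33 reads, against 629 reads on HIST1H2BD. HIST1H2BC had 1.43, 0.897 and 0.560 FPKM in OE-MST3 libraries and 1.09, 0.560 and 1.24 FPKM in vector libraries, and HIST2H2BE had 0.457, 1.29 and 0.745 FPKM in OE-MST3 and 0.830, 0.718 and 0.679 FPKM in vector libraries. Neither showed a separation of the groups.

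H3 genes were low without exception. None of the 15 reached a mean of 1 FPKM, and the highest was HIST1H3E with 0.632, 0.559 and 0.762 FPKM in OE-MST3 libraries, against 0.807, 0.523 and 0.449 FPKM in vector libraries, from 171 reads. HIST1H3H, HIST3H3 and HIST1H3B averaged 0.607, 0.507 and 0.429 FPKM over the 6 libraries, from 77, 25 and 18 reads. For HIST3H3, known as a testis H3 gene, the OE-MST3 libraries had 0.521, 0.718 and 0.606 FPKM and the vector libraries 0.118, 0.243 and 0.834 FPKM, with single libraries resting on a handful of reads.

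The H4 genes encode nearly the same protein throughout, and their levels differed widely. HIST1H4I (ENSG00000276180; chromosome 6, 27138588 to 27139881, plus strand) had 2.13, 3.07 and 1.94 FPKM in OE-MST3 libraries, against 2.90, 3.74 and 2.39 FPKM in vector libraries, from 359 reads. HIST1H4K had 1.00, 0.923 and 1.31 FPKM in OE-MST3 libraries, against 2.55, 0.561 and 2.02 FPKM in vector libraries, on 5, 5 and 7 reads in OE-MST3 and 14, 3 and 11 reads in vector libraries. Its coding sequence is identical to that of HIST1H4J, so the 45 reads of HIST1H4K and the 4 of HIST1H4J cannot be told apart by sequence within the coding part. The other 13 H4 genes averaged under 1 FPKM, and 3 of the 15 had no read.

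Of the 20 highest members, the 12 that averaged under 1 FPKM had means of 0.327 to 0.962 FPKM and 13 to 178 reads in all. HIST1H2AI, HIST1H2BJ, HIST3H2BB, HIST1H2BO and HIST1H2AG were the lowest of these, at means of 0.413, 0.407, 0.343, 0.331 and 0.327 FPKM. The 51 members below them comprised 22 without a read and 29 with 1 to 146 reads and means up to 0.299 FPKM. Sequence copies limit what single entries mean for some of them: 16 members have fewer than 50% of their 50-base stretches to themselves, and 8 members form 4 pairs with identical coding sequences (HIST1H4J and HIST1H4K, HIST2H2AA3 and HIST2H2AA4, HIST2H3A and HIST2H3C, HIST2H4A and HIST2H4B). Of these 16 members, 5 had no read and 2 averaged at least 1 FPKM, and of the 50 members with at least 90% of these stretches to themselves, 17 had no read and 5 averaged at least 1 FPKM. The part of shared sequence in the missing reads was not tested.

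By position, the 55 HIST1 genes lie in 2 blocks on chromosome 6. The block from 25726132 to 26285638 holds 34 genes, and their FPKM summed to 34.8, 29.03 and 30.2 in OE-MST3 libraries and 31.9, 26.9 and 26.1 in vector libraries. The block from 27125897 to 27893843 holds 21 genes, which summed to 27.4, 32.3 and 33.8 FPKM in OE-MST3 libraries and 26.8, 28.0 and 27.8 FPKM in vector libraries. The 12 HIST2 genes of chromosome 1 summed to 3.88, 2.97 and 3.12 FPKM in OE-MST3 and 3.22, 3.59 and 3.07 FPKM in vector libraries. The 3 HIST3 genes summed to 12.6, 12.3 and 15.9 FPKM in OE-MST3 and 11.6, 13.4 and 14.2 FPKM in vector libraries, nearly all of it from HIST3H2A. HIST4H4, the single gene of the chromosome 12 locus, averaged 0.0839 FPKM.

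**Figure D2:**
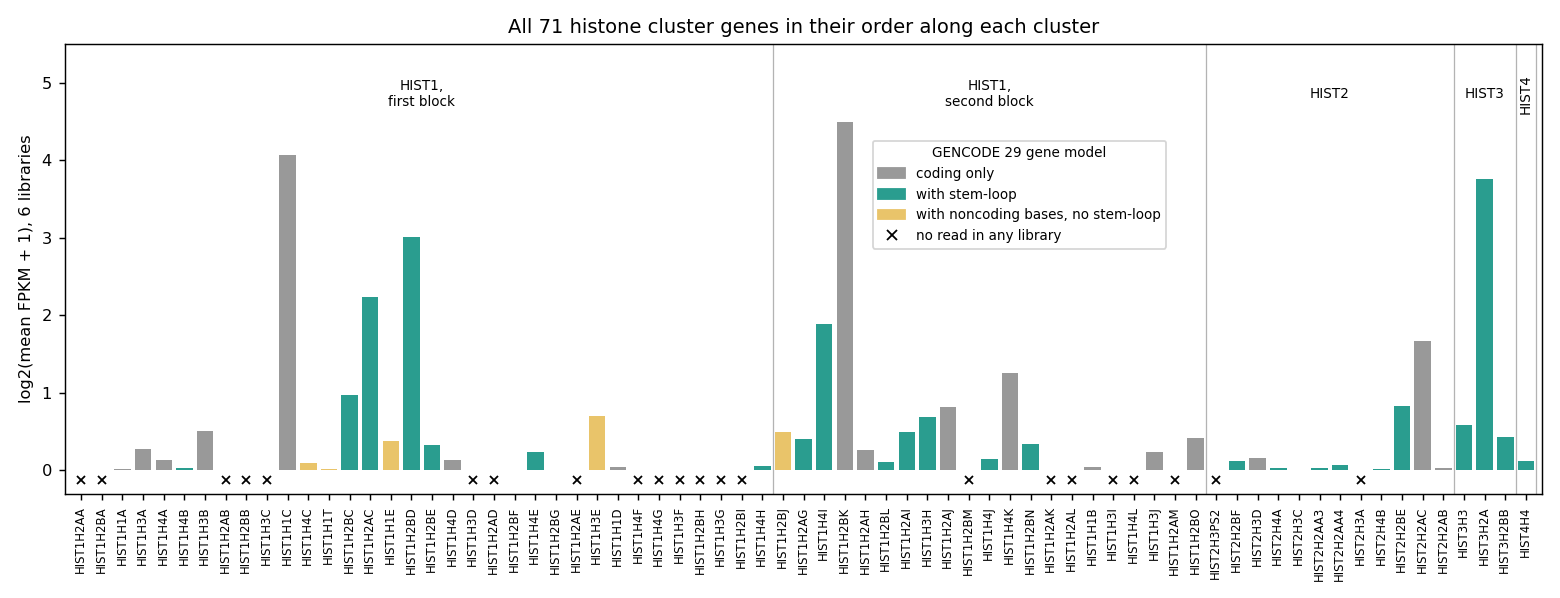
Mean level of all 71 histone cluster genes over the 6 libraries, as log2(mean FPKM + 1), in their order along each cluster; bar colours give the GENCODE 29 gene model and crosses mark the 22 genes without a read. Single high genes stand among low or undetected neighbours in both HIST1 blocks and in HIST3.

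Many H2A and H2B genes lie head to head, so that one stretch of DNA lies before both starts. Taken from gene spans, there were 11 such pairs of an H2A and an H2B gene with at most 1000 bases between them, and the gap was 218 to 330 bases. By the same rule the span of the H3 gene HIST1H3J lay 356 bases from HIST1H2BO. HIST1H2BO, also paired with HIST1H2AM, thus stands in 2 of the 12 pairs. The HIST1H3J span overlaps HIST1H2AM on the same strand, and 1 of its 2 transcripts is coding. That gap therefore need not begin at the H3 coding sequence. HIST1H2AK and HIST1H2BN, on opposite strands, have overlapping spans and were not counted as a pair, though their promoter sequences cover nearly the same stretch. In 4 pairs one partner averaged at least 1 FPKM, and in none did both. HIST1H2BK averaged 21.6 FPKM and its partner HIST1H2AH 0.204 FPKM, with 8 reads. HIST3H2A averaged 12.5 FPKM from 1146 reads and HIST3H2BB 0.343 FPKM from 84 reads. The HIST3H2BB model, by whose length its reads are divided, is the longer one and runs 1917 bases past its stem-loop. HIST1H2AC averaged 3.72 FPKM and HIST1H2BC 0.962 FPKM, and HIST2H2AC averaged 2.18 FPKM and HIST2H2BE 0.786 FPKM. By reads the order within this last pair was reversed. HIST2H2AC had 87 reads on a model of 390 bases and HIST2H2BE 178 reads on a model of 2194 bases. The sequences around the starts of HIST3H2A (chr1:228457824-228458123, minus strand) and HIST1H2AC (chr6:26123922-26124221, plus strand), from RefSeq on GRCh38.p14, are shown because each reaches across the stretch shared with its partner. Each ends inside its gene by the coordinates given above. The capitals mark the TATA box motif TATAAA, the binding motif of NF-Y written as CCAAT, and the octamer ATTTGCAT, found before many H2A and H2B genes, on either strand.
HIST3H2A: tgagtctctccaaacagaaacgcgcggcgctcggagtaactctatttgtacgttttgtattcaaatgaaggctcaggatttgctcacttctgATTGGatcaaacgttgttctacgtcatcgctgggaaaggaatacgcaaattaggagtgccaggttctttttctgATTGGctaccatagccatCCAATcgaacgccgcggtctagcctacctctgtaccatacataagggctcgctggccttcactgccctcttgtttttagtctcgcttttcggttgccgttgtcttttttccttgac
HIST1H2AC: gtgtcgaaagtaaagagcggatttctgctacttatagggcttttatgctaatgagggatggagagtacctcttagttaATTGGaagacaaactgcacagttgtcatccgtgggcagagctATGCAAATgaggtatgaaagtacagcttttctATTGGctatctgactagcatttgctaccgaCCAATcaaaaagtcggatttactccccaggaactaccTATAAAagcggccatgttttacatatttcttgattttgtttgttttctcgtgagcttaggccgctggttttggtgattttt
A promoter sequence of 300 bases was found for 57 of the 71 members. On either strand, TATAAA stood in 66.7% of them against 11.5% of the 35116 promoters in the table, CCAAT in 82.5% against 34.6%, and ATTTGCAT in 33.3% against 1.77%. The octamer was in 11 of 16 H2A and 8 of 11 H2B promoters and in no H1, H3 or H4 promoter of the members, and CCAAT was in 3 of 13 H4 promoters against all 44 of the members of other types. These promoters are not all separate DNA, because divergent partners share most of the stretch and the same site can count for both. The octamer did so for HIST1H2AA and HIST1H2BA, HIST1H2AG and HIST1H2BJ, HIST1H2AJ and HIST1H2BM, HIST1H2AM and HIST1H2BO, and HIST2H2AC and HIST2H2BE. None of the 3 motifs contains another, and a match describes letters only.

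**Figure D3:**
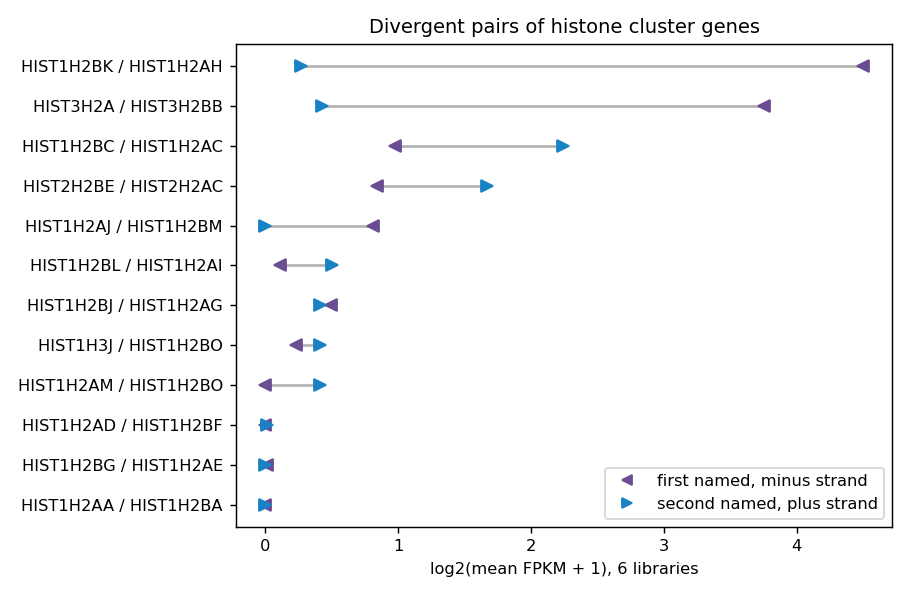
Mean level of the partners of each of the 12 divergent pairs, taken from gene spans, over the 6 libraries, as log2(mean FPKM + 1); left-pointing triangles are the minus strand gene named first and right-pointing triangles the plus strand gene. In the 4 highest pairs a single partner lies above 1 FPKM.

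OE-MST3 libraries were then compared with vector libraries on log2(FPKM + 1), over the 13036 genes that averaged 1 FPKM or more, with limma and Benjamini-Hochberg adjustment. Of the 8 histone cluster genes among them 0 were called at an adjusted p under 0.05, where 0.00767% of all genes were called, a single gene, STK24. Of the 8, 4 lay above 0 and 4 below, where 46.6% of all genes tested lay above 0. The median log2 difference of the 8 was -0.09, against -0.01 over all genes tested. At an unadjusted p under 0.05 there was 1 of the 8, HIST1H2BK, where 5.38% of all genes had such a p, and limma voom on recovered reads gave 0 at that level and called 0. HIST1H2BK was also the only one of the 8 with groups that do not overlap, where 11.9% of all genes were separated in either direction and 5.19% upward.

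HIST1H2BK averaged 23.7 ± 3.35 FPKM in OE-MST3 and 19.4 ± 0.208 FPKM in vector libraries (SD, n = 3 each), a ratio of 1.23. On the log2 scale it was 0.27 higher (SE 0.11, with 0.01 to 0.53 as 95% interval), and limma gave an adjusted p of 0.719. The difference is larger than the spread among vector libraries and close to that among OE-MST3 libraries, and without OE-MST3 replicate 3 it was 0.18. HIST1H1C averaged 17.2 ± 2.14 FPKM in OE-MST3 and 14.2 ± 0.974 FPKM in vector libraries (SD, n = 3 each), which is 0.25 on the log2 scale (95% interval -0.00381 to 0.505, adjusted p = 0.719 by limma). The interval of HIST3H2A was -0.26 to 0.33 around 0.04, and that of HIST1H2BD -0.31 to 0.31 around 0.00. HIST1H2AC had a log2 difference of -0.18 (-0.48 to 0.11), HIST1H4I of -0.25 (-0.64 to 0.15), HIST2H2AC of -0.24 (-0.71 to 0.23) and HIST1H4K of -0.30 (-0.999 to 0.39), each an interval that includes 0. On this scale, intervals understate the ratio for the low genes. The smallest adjusted p among the members was 0.719, and over 15 alternative settings it lay between 0.217 and 0.999.

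**Figure D4:**
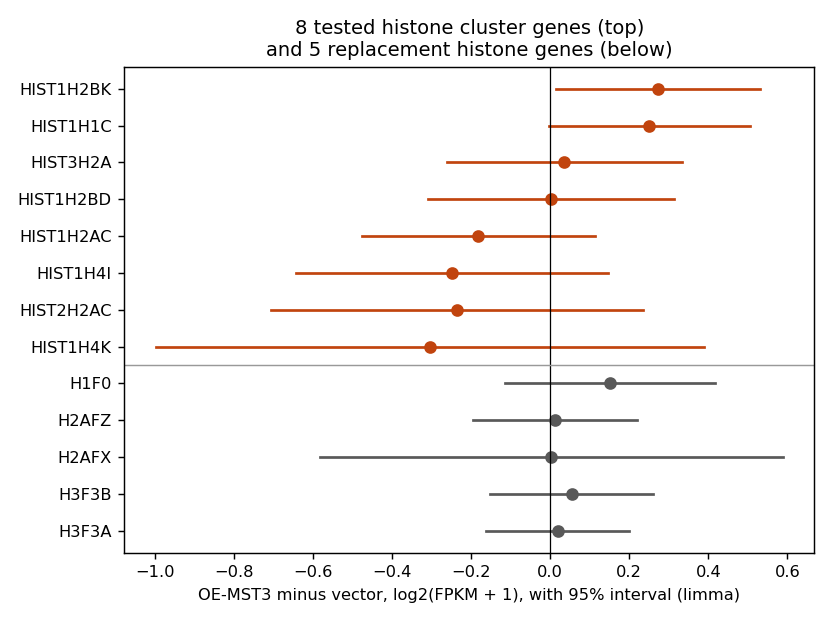
Difference between OE-MST3 and vector libraries on log2(FPKM + 1) for the 8 tested histone cluster genes (above the line) and the 5 replacement histone genes (below it); points are limma estimates and lines 95% intervals. Among the 13 genes shown, the interval of HIST1H2BK, from 0.01 to 0.53, is the one that does not include 0, and those of HIST1H4K and H2AFX are the widest.

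None of the 5 reference genes was called. Their log2 differences were 0.15 for H1F0 (95% interval -0.12 to 0.42), 0.05 for H3F3B (-0.15 to 0.26), 0.02 for H3F3A (-0.16 to 0.20), 0.01 for H2AFZ (-0.20 to 0.22) and 0.00 for H2AFX (-0.58 to 0.59). The OE-MST3 values of H2AFX spread from 104 to 212 FPKM, and without OE-MST3 replicate 3 its difference was -0.31.

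Summed over all 71 members, the FPKM averaged 79.6 ± 3.29 in OE-MST3 and 72.2 ± 1.25 in vector libraries (SD, n = 3 each), a ratio of 1.10, and the groups did not overlap. The sum is a description of the chosen genes and was not tested. The 3 highest members, HIST1H2BK, HIST1H1C and HIST3H2A, together averaged 53.6 ± 5.20 FPKM in OE-MST3 and 45.9 ± 0.256 FPKM in vector libraries, while the other 68 members together averaged 26.0 ± 2.01 and 26.3 ± 1.42 FPKM in OE-MST3 and vector libraries (SD, n = 3 each). By type, H2B genes summed to 34.2 ± 2.18 FPKM in OE-MST3 and 30.0 ± 0.877 FPKM in vector libraries, and H1 genes to 17.7 ± 2.20 and 14.5 ± 1.25 FPKM in OE-MST3 and vector libraries. H2A genes summed to 20.3 ± 2.47 FPKM in OE-MST3 and 20.01 ± 1.12 FPKM in vector libraries. H3 genes summed to 3.03 ± 0.333 FPKM in OE-MST3 and 2.34 ± 0.196 FPKM in vector libraries, and H4 genes to 4.33 ± 0.293 FPKM in OE-MST3 and 5.31 ± 0.875 FPKM in vector libraries (SD, n = 3 each). The groups did not overlap for H2B and H3, and did for H1, H2A and H4. The H2B sum holds HIST1H2BK, whose groups did not overlap by themselves. The H3 sum comes from genes that averaged at most 0.622 FPKM, with few reads each. Of all single genes tested, 11.9% were separated in either direction, and the sums by type were not tested.

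**Figure D5:**
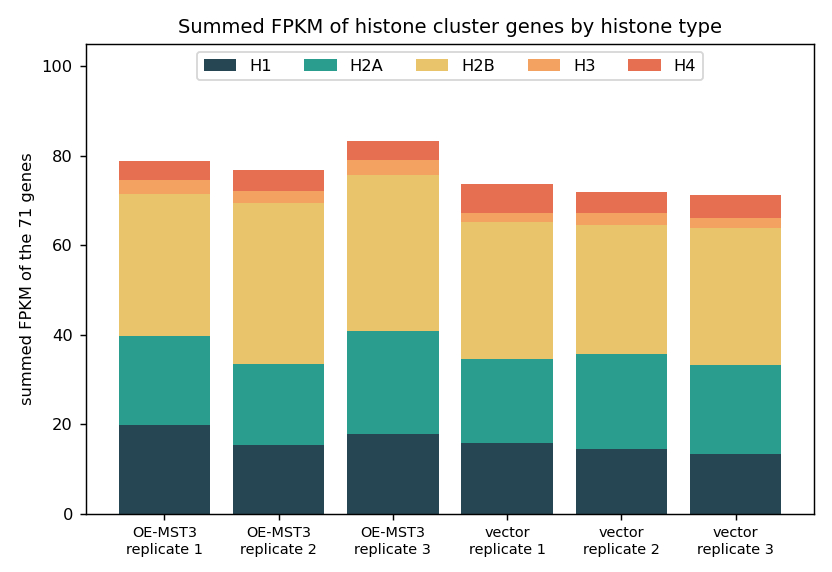
Summed FPKM of the 71 histone cluster genes in each library, OE-MST3 replicates on the left and vector replicates on the right, stacked by histone type. The totals run from 76.7 to 83.2 in OE-MST3 libraries and from 71.2 to 73.6 in vector libraries, and H2B is the tallest part in each.

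The genes that make, process and handle histone mRNAs and proteins were taken from lists chosen with earlier results of these data known. Over all genes tested, 46.6% lay above 0. Of 20 genes for the transcription and 3′ end processing of histone mRNAs, all were tested and 0 were called in either direction, with 7 above and 13 below 0 and a median log2 difference of -0.03. NPAT, the coactivator that drives histone gene transcription, had 3.17, 3.51 and 3.13 FPKM in OE-MST3 libraries, against 3.82, 4.11 and 4.43 FPKM in vector libraries. All OE-MST3 values lay below all vector values, with a log2 difference of -0.26 (SE 0.08; unadjusted p = 0.0164, adjusted p = 0.719 by limma), in a fit where 6.7% of all genes were separated downward. SLBP, which binds the stem-loop, had 47.9, 51.8 and 56.9 FPKM in OE-MST3 libraries, against 56.2, 61.6 and 57.7 FPKM in vector libraries, and the groups overlapped by a single value. CSTF2T, a variant of the cleavage stimulation factor, had 9.29, 8.40 and 7.13 FPKM in OE-MST3 libraries, against 7.14, 6.79 and 7.30 FPKM in vector libraries.

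Of 17 histone chaperones 0 were called, with 5 above and 12 below 0 and a median of -0.05, where 46.6% of all genes lay above 0. RBBP4, a subunit of the chaperone CAF-1, averaged 23.0 ± 2.92 FPKM in OE-MST3 and 26.03 ± 1.39 FPKM in vector libraries, NAP1L1, a chaperone of H2A and H2B, 26.5 ± 3.83 and 29.7 ± 2.55 FPKM in OE-MST3 and vector libraries, and HIRA, which deposits H3.3, 2.19 ± 0.370 and 1.82 ± 0.179 FPKM in OE-MST3 and vector libraries (SD, n = 3 each). Of 25 S-phase genes 0 were called, with 9 above and 16 below 0 and a median of -0.03. RRM2, the small subunit of ribonucleotide reductase, had 48.8, 69.4 and 60.1 FPKM in OE-MST3 libraries, against 66.9, 84.8 and 74.3 FPKM in vector libraries, with OE-MST3 replicate 2 above vector replicate 1. TYMS, thymidylate synthase, had 21.9, 23.3 and 25.9 FPKM in OE-MST3 libraries, against 19.9, 20.5 and 21.1 FPKM in vector libraries. CDC6, which licenses replication origins, had 18.7, 18.1 and 17.2 FPKM in OE-MST3 libraries, against 19.7, 21.6 and 19.5 FPKM in vector libraries. TYMS was separated upward and CDC6 downward, 2 of the 25 genes, where 11.9% of all genes were separated in either direction, and both had an adjusted p of 0.719 by limma.

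Of 7 other replacement and variant histone genes 6 were tested and 0 called. There were 5 above and 1 below 0, with a median of 0.12, where 46.6% of all genes lay above 0. H2AFJ, for the variant H2A.J, averaged 3.50 ± 0.747 FPKM in OE-MST3 and 2.53 ± 0.360 FPKM in vector libraries, and H2AFV, for a form of H2A.Z, 28.8 ± 1.47 and 26.1 ± 1.37 FPKM in OE-MST3 and vector libraries (SD, n = 3 each). H2AFY, for macroH2A1, had 11.3, 11.5 and 11.9 FPKM in OE-MST3 libraries, against 12.4, 13.2 and 12.8 FPKM in vector libraries, and the groups did not overlap. Its log2 difference was -0.14 (95% interval -0.30 to 0.03), with an adjusted p of 0.719 by limma.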

How the data were processed

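The authors deposited 1 table of FPKM values with 1 column per library. HISAT2 is named per the submitters' processing notes, while the sources used here do not state its version, the counting program, strand setting, treatment of multiply mapped reads, build or annotation. All 71 members have the same position in GENCODE 29, so coordinates are on GRCh38. FPKM times gene length was a whole multiple of 1 step per library for 100% of values (tolerance 0.01), which gave the reads behind each value, 15289213 to 17708029 per library. For the comparison, limma 3.58.1 (R 4.3.3, with the trend of variance on level) was fitted to log2(FPKM + 1) of the 13036 genes that averaged 1 FPKM or more, two-sided, and p-values were adjusted by Benjamini-Hochberg at 0.05. A difference on this scale understates the ratio of low genes. The fit was tested on simulated data.

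Members, lists and tests were chosen with earlier results of these data known. Named genes were STK24, the tested members, the 20 members with the highest mean, the 5 reference genes and the 3 genes with the smallest p of each further list. H2BFS, LARP1P1, AL353759.1, the marker genes given with values and the low members named for a copy, a partner or a role were chosen after their values were seen. Shared sequence was counted over 50-base stretches of GENCODE 29 transcripts, not of the genome, and the sources used here do not state the read length. Alternatives covered the pseudocount, filter, scaling, voom, replicate block, protein-coding genes alone and each library left out. Python 3.11.15, pandas 2.3.3, numpy 2.4.6, statsmodels 0.14.6 and matplotlib 3.10.9 were used.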

Additional observations from a re-analysis of the deposited data

How the results depend on the processing

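No member was called under any of the 15 alternatives, and in each STK24 was the 1 gene called. The median-of-ratios factor was 1.005 for every library, so that alternative nearly repeats the main fit and adds no separate check. The filter set how many members entered. At a mean of 0.1 FPKM 29 were tested, with 18 above 0 and a median log2 difference of 0.0462. Over all genes in that fit 52.6% lay above 0, with a median of 0.0092. Without a filter 49 were tested, with 27 above 0 and a median of 0.0352. Over all genes in that fit 54.5% lay above 0, with a median of 0.0076. The main fit had 8, with 4 above 0 and a median of -0.0903. Of 71 members 49 were detected by any read, 29 by a mean of 0.1 FPKM and 8 by a mean of 1 FPKM. The ratio of summed FPKM (1.10) was 1.08 on recovered reads in RPM, an alternative added after seeing the data. With 1 library left out, detected members ran from 46 to 49, the ratio from 1.08 to 1.12 and the median from -0.124 to -0.0421. Genes near 0 changed sign with 1 library left out: HIST1H2BD ran from -0.0829 to 0.137, HIST3H2A from -0.0862 to 0.120, H2AFZ from -0.0301 to 0.0464 and H2AFX from -0.310 to 0.203, the lowest without OE-MST3 replicate 1, OE-MST3 replicate 3, vector replicate 3 and OE-MST3 replicate 3 in that order. HIST1H2BD was also -0.00016 at a pseudocount of 0.1, and under quantile normalization H2AFZ was -0.0331, H2AFX -0.0454 and H3F3A -0.0176. The cause was not tested. Same-numbered libraries correlated at 0.016, 0.226 and 0.035 in their deviations from the group means, so the numbers were not taken as pairs. With the replicate block 0 members were called, their median was -0.0903, and 3 of 8 had an unadjusted p under 0.05, where 10.3% of all genes did, against 1 of 8 and 5.38% of all genes without it. A gene with 1 to 3 reads supports no comparison.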
